A study of Neurospora crassa with 42 samples.

Results

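Transcript levels were compared between starved mycelia of Neurospora crassa that lack os-1 and starved wild type mycelia. Each group had 3 libraries, so the comparison used 6 of the 42 libraries of the series, chosen by their labelled strain and time. The wild type is the strain FGSC 2489, and the other group is labelled Δos-1. Both had grown from conidia for 16 h on 2% sucrose in constant light, were washed, and were then held for 10 h in Vogel's minimal medium without a carbon source. The title of the series names the joining of osmolarity and carbon sensing as its subject. Another 9 libraries of the same age and medium served as references: Δos-2, Δclr-3 and Δos-1Δclr-3, with 3 libraries each. The clr-3 gene encodes a repressor of cellulase genes, and the last 2 of these groups lack it. Also starved for 10 h were Δcre-1, Δos-2Δclr-3 and Δcre-1Δclr-3, with 3 libraries each. They entered the same model, whose shared estimate of the spread lies behind every p-value. Ranges over the whole series also take in groups held for 4 h, starved or on Avicel. Wild type, Δclr-3 and the strain labelled Pccg1-clr-2 were starved, and wild type, Δclr-1 and Δclr-2 were on Avicel. The labels call the 3 libraries of a group biological replicates and do not say whether a deletion strain is 1 clone, so the tests measure the spread between cultures.

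OS-1 is a hybrid histidine kinase that senses osmotic conditions. It signals through the phosphotransfer protein HPT-1 and the response regulator RRG-1 to the kinases OS-4, OS-5 and OS-2, the fungal counterpart of the high-osmolarity glycerol (HOG) pathway of yeast. OS-2 is the MAP kinase at the end of this chain, and the transcription factor ASL-1 acts downstream of it. Strains without os-1 are known for osmotic sensitivity, for altered hyphal walls and conidiation, and for resistance to phenylpyrrole and dicarboximide fungicides.

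The deleted gene checked the labels. The os-1 gene (NCU02815, I:9024259-9030833 on build NC12) stood at 167, 180.1 and 187 FPKM in the wild type libraries and at 5.13, 5.09 and 4.89 FPKM in the Δos-1 libraries. FPKM count fragments per kilobase of each transcript relative to the size of the library, and the authors deposited them per gene. The gene was left out of all tests of its own loss. The 6 libraries had an implied depth of 19.2 to 22.2 M (mega) fragments, taken from the width of the deposited FPKM bounds under Poisson counting, and 8946 to 9025 genes had a value above 0. Within the groups at 10 h, the SD of the log2 ratio between replicates ran from 0.129 to 0.285.

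Loss of os-1 moved a small set of genes by a large amount and many genes by a little. Tests were run on 8013 genes whose level averaged 1 FPKM or more at 10 h. Of these 127 rose and 87 fell, which is 1.58% and 1.09%, or 2.67% together. Both verbs stand here for a limma adjusted p under 0.05 (Benjamini-Hochberg) with a change of 1 or more units of log2(FPKM + 1), a scale that understates changes of low genes. At any size of change 3398 genes passed the adjusted p, or 42.4%. The median log2 fold change over all tested genes was -0.09. Rescaling by median ratios moved it by 0.10 to 0.01 and changed the split to 142 higher and 67 lower. Changes of 2 log2 units or more were seen in 20 of the higher and 11 of the lower genes. In 210 of the 214 called genes the libraries of the groups did not overlap, a separation found in 56.9% of all tested genes. Such separation was a condition for naming the genes with the largest rises and falls, so in these genes it is no result.

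**Figure D1:**
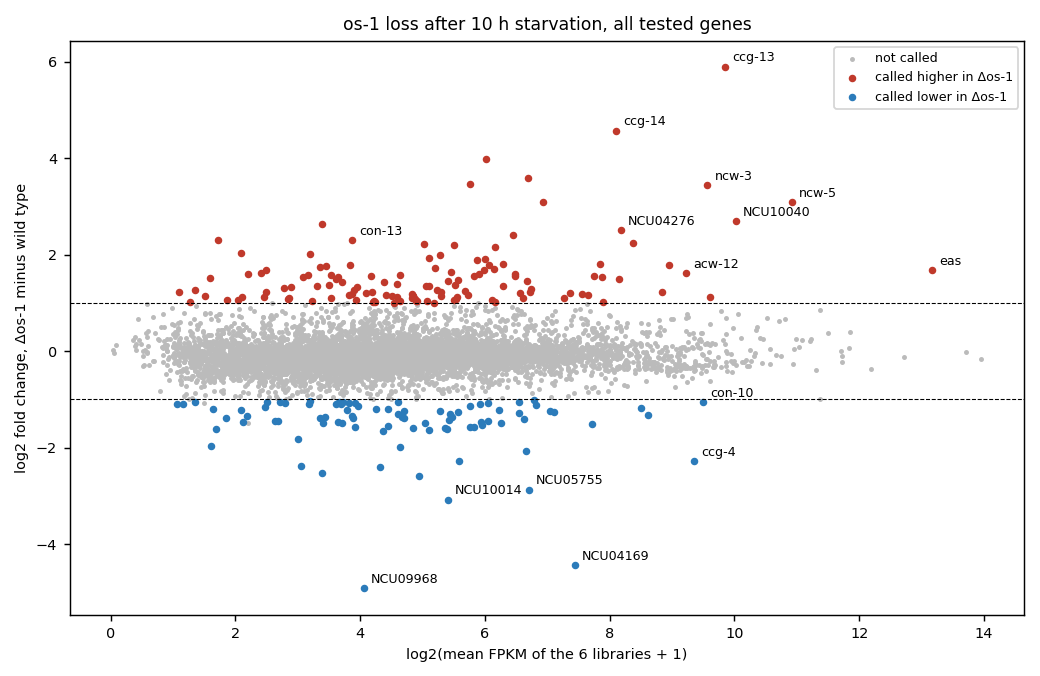
Each point is 1 of 8013 tested genes, with log2 of the mean FPKM of the 6 libraries plus 1 on the x axis and the log2 fold change of Δos-1 minus wild type on the y axis. Red points are the 127 genes called higher, blue points the 87 called lower, and dashed lines mark a change of 1 log2 unit. The cloud of grey points lies slightly below 0, and ccg-13, ccg-14, ncw-3 and ncw-5 stand above it among abundant transcripts.

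The largest and next largest rises were those of ccg-13 and ccg-14. The gene ccg-13 (NCU08907, V:678921-680033), also known as ncw-7, encodes a non-anchored cell wall protein and belongs to the clock-controlled genes. Its level was 39.9, 29.9 and 21.1 FPKM in wild type and 1756, 2091 and 1584 FPKM in Δos-1. The lowest mutant library was far above the highest wild type library. The log2 fold change was 5.89 ± 0.32 (± SE, adjusted p = 3.14e-11, limma), a ratio of means of 59.7. Across the other 12 groups of the series the mean level ran from 2.99 to 1921 FPKM, and the highest of these belonged to Δos-1Δclr-3.

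The gene ccg-14 (NCU07787, V:301242-304089), which encodes a small secreted protein of the cerato-platanin family, followed it. It rose from 25.9, 21.5 and 16.5 FPKM to 537, 597 and 434 FPKM, with no overlap between the groups. The log2 fold change was 4.56 ± 0.25 (adjusted p = 3.31e-11, limma). Both belong to a list of 11 clock-controlled genes, of which 2 rose, 1 fell and 8 were not called. Shares over all tested genes were 1.58% higher and 1.09% lower. The median log2 change of that list was -0.02, against -0.09 over all genes. Its sign turned to positive under both rescalings.

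The other wall protein genes rose less but from higher levels. The gene ncw-5 (NCU00716, I:7451777-7453525), another non-anchored cell wall protein, went from 477, 398 and 351 FPKM to 3497, 3809 and 3059 FPKM, a log2 fold change of 3.08 ± 0.18 (adjusted p = 6.97e-11, limma). Its relative ncw-3 (NCU07817, III:972480-974377) went from 139, 121 and 121 FPKM to 1397, 1427 and 1330.0 FPKM, a log2 fold change of 3.44 ± 0.15 (adjusted p = 8.46e-13, limma). In both genes every mutant library lay above every wild type library. The genes acw-12 (NCU08171) and acw-8 (NCU07277) encode anchored cell wall proteins. The first rose from 292 ± 8.42 to 895 ± 64.1 FPKM (± SD, n = 3 libraries) and the second from 274 ± 38.9 to 644 ± 93.0 FPKM. Their log2 fold changes were 1.61 ± 0.17 and 1.23 ± 0.11.

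Of 18 structural cell wall protein genes tested, 4 rose, none fell and 14 were not called, with log2 changes from -0.56 to 3.44 and a median of 0.34. Over all tested genes, 1.58% rose and 1.09% fell. The genes just short of the fold threshold were ncw-4 at 0.87 and ncw-6 at 0.78. Among members with lower values in the mutant, ncw-2 stood at -0.56 and acw-10 at -0.39. The enzymes that make the wall moved little. None of 8 chitin and glucan synthesis genes was called, and their log2 changes lay between -0.46 and 0.38. Of 7 chitinase genes tested, which encode enzymes that cleave chitin, 2 were called higher. The gene gh18-4 stood at 4.92, 4.18 and 9.52 FPKM in wild type and at 12.9, 16.9 and 24.2 FPKM in Δos-1, without overlap (log2 fold change 1.43 ± 0.33). For chit-1 the groups overlapped, with 10.7, 13.8 and 30.7 FPKM against 29.4, 45.0 and 63.3 FPKM, and its adjusted p of 0.0231 (limma) rose to between 0.0574 and 0.115 when wild type replicate 1 or 2 or Δos-1 replicate 2 or 3 was left out.

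**Figure D2:**
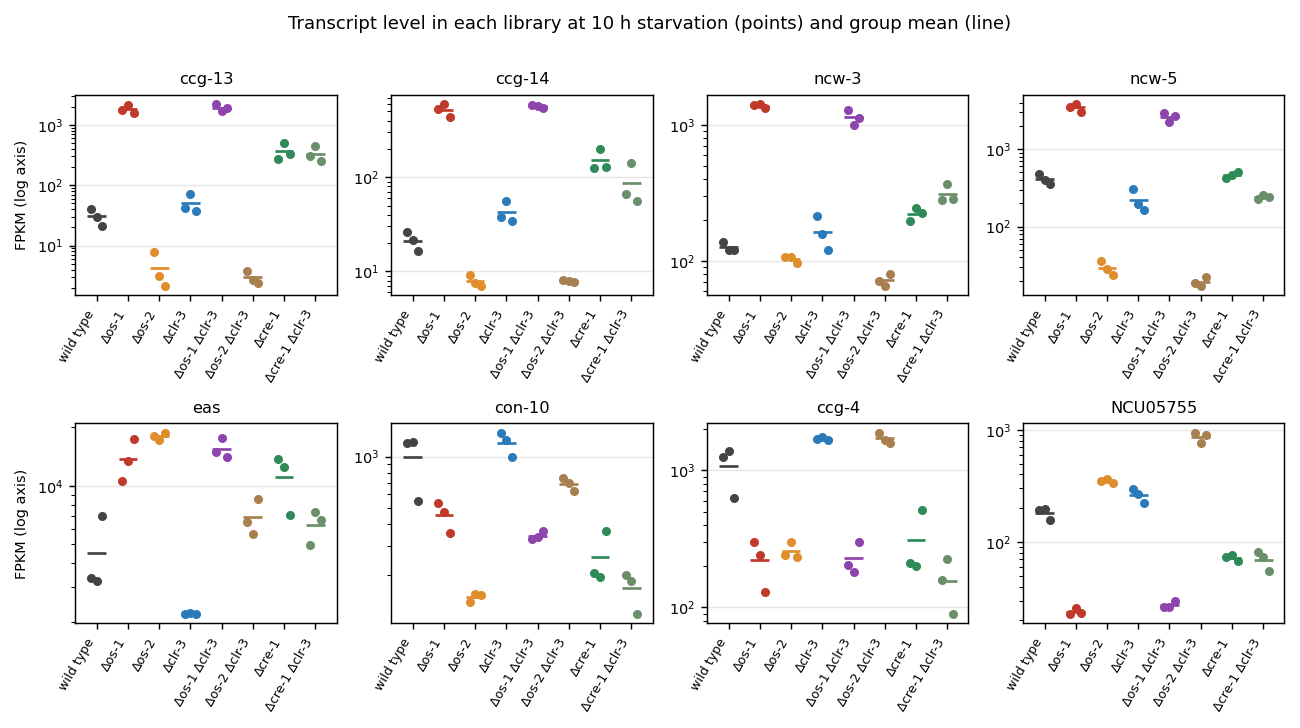
FPKM on a log axis for 8 genes in the 8 strains held for 10 h without carbon, with 1 point per library and a line at the mean of each group of 3. In ccg-13, ccg-14, ncw-3 and ncw-5 the Δos-1 and Δos-1Δclr-3 libraries are the highest, and in NCU05755 they are the lowest. In eas, con-10 and ccg-4 the third wild type library lies toward the Δos-1 values.

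Other strong rises were in genes without a symbol in the reference annotation. The neighbours NCU09209 (I:5845361-5847904) and NCU09210 (I:5849601-5852150) rose together. The former stood at 5.74, 5.44 and 9.15 FPKM in wild type and at 102, 133 and 126 FPKM in Δos-1, a log2 fold change of 3.99 ± 0.31. The latter stood at 13.4, 11.8 and 19.8 FPKM against 165, 194 and 207 FPKM, a change of 3.59 ± 0.28. In both genes the groups were far apart.

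NCU10040 (IV:5939000-5940994) was the most abundant of the unnamed rising genes. It stood at 329.8, 247 and 251 FPKM in wild type and at 1655, 2201 and 1532 FPKM in Δos-1 (log2 fold change 2.69 ± 0.25, adjusted p = 6.16e-08, limma). NCU00607 rose by 3.46 ± 0.35, from a mean of 8.32 to 98.3 FPKM, and NCU07318 by 3.10 ± 0.17, from 24.7 to 217 FPKM. NCU06413 rose by 2.64 ± 0.20, from 1.88 to 17.1 FPKM, and NCU00985 by 2.41 ± 0.18, from 26.6 to 145 FPKM. Separate groups were a condition for naming these 5 genes.

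For a further pair of rising genes, wild type at 10 h had the lowest mean of all 14 groups. NCU04276 (V:5467674-5469105) stood at 46.3, 60.4 and 92.0 FPKM in wild type and at 112, 453 and 966 FPKM in Δos-1, a wide spread within the mutant. Its log2 fold change was 2.51 ± 0.47 (adjusted p = 0.000224, limma). In the other 12 groups the mean ran from 308 to 13798 FPKM, all above the wild type mean of 66.2 FPKM. NCU07853 was at 101, 93.3 and 115 FPKM in wild type and at 243, 532 and 907 FPKM in Δos-1 (2.24 ± 0.31). Its means in the other 12 groups ran from 119.8 to 4572 FPKM.

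**Figure D3:**
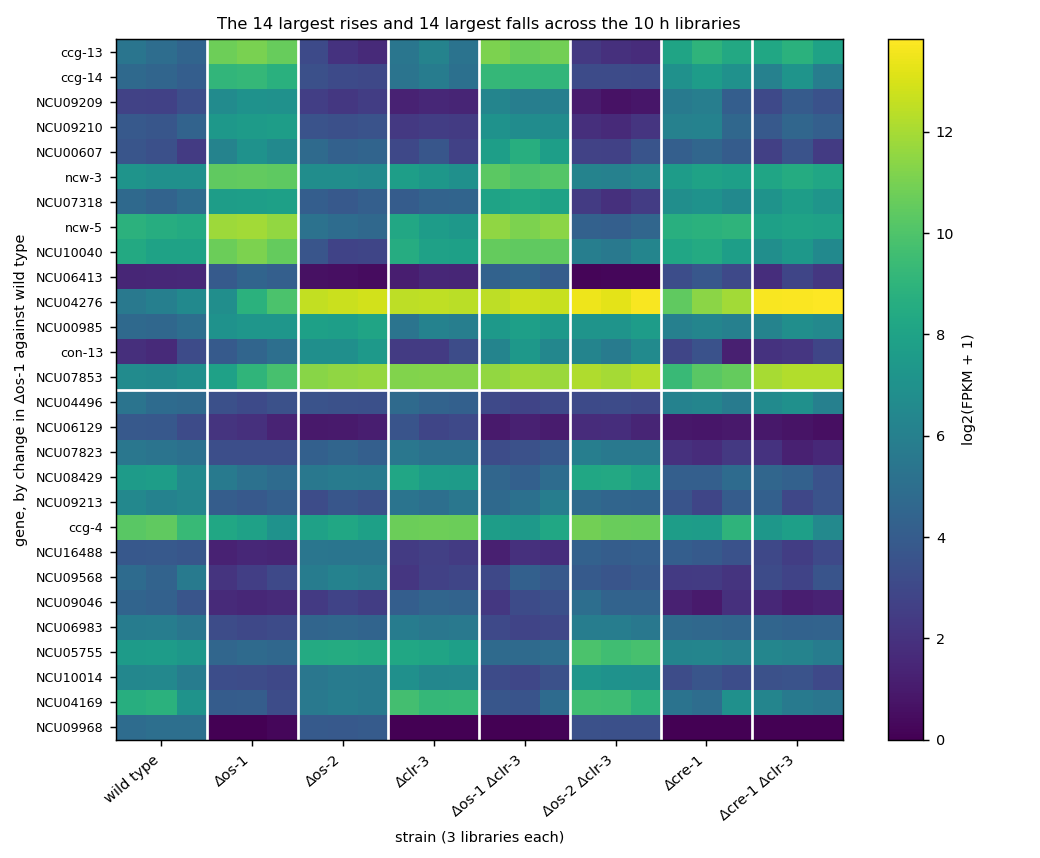
Level of the 28 genes with the largest changes (14 higher, 14 lower) as log2(FPKM + 1), in colour, with genes on the y axis and the 24 libraries of the 8 strains at 10 h on the x axis. The rows of NCU04276 and NCU07853 are dark in wild type and brighter in the other strains, and NCU09968 is near 0 in 5 of the 8 strains.

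Conidiation genes moved in both directions. The hydrophobin gene eas (NCU08457, II:3570905-3572798), which encodes the rodlet protein of the conidial coat, stood at 3345, 3236 and 6967 FPKM in wild type and at 10594, 13497 and 17404 FPKM in Δos-1. The groups did not overlap, and the log2 fold change was 1.68 ± 0.26 (adjusted p = 2.86e-05, limma). The conidiation gene con-13 (NCU07324) rose from 2.63, 2.08 and 7.83 FPKM to 14.4, 21.9 and 32.5 FPKM (2.30 ± 0.48). In the opposite direction, con-10 (NCU07325), an abundant conidiation transcript whose gene lies close by on chromosome IV, stood at 1204, 1214 and 544 FPKM in wild type and at 532, 471 and 356 FPKM in Δos-1. The lowest wild type library lay just above the highest mutant library. Its log2 fold change of -1.05 ± 0.26 (adjusted p = 0.0028, limma) fell short of the fold threshold under median-ratio rescaling, at -0.94, and without wild type replicate 1 or 2 or Δos-1 replicate 3, at -0.86 to -0.89. The gene wet-1 (NCU01033), the counterpart of the Aspergillus regulator of spore maturation wetA, fell from 8.41 ± 1.83 to 3.39 ± 0.353 FPKM (-1.08 ± 0.13), and stood at -0.96 after the rescaling and at -0.98 without wild type replicate 2.

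Of 13 conidiation and hydrophobin genes 2 rose, 2 fell and 9 were not called, with a median of 0.49. For comparison, 1.58% of all tested genes rose and 1.09% fell. The regulator genes fl and acon-3 had log2 changes of 0.54 and 0.66. As markers of conidia and aerial hyphae, 9 of these genes summed to 5922 to 9004 FPKM in the wild type libraries and 13272 to 20200 FPKM in the Δos-1 libraries. Without eas the sums were 2037 to 2745 FPKM and 2678 to 2897 FPKM. None of the 9 markers was at 0 in all libraries of either group. In bulk mycelium, a change in the share of aerial or conidiating cells and a change of RNA per cell cannot be told apart. The part of these cells in the other results was not tested. Wild type replicate 3 lay nearer to the mutant than its fellows for eas, con-10, con-13 and ccg-4. Without it the log2 changes were 2.04, -1.43, 2.77 and -2.63, and 129 genes were higher and 112 lower.

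Genes of mating and sexual development showed 1 large fall. The gene ccg-4 (NCU02500, I:2531832-2533997), which encodes the pheromone precursor of mat A strains, stood at 1244, 1371 and 629.6 FPKM in wild type and at 299, 239 and 130.3 FPKM in Δos-1. The groups did not overlap, and the log2 fold change was -2.28 ± 0.36 (adjusted p = 4.12e-05, limma). Of 9 genes of the list tested, 1 rose and 1 fell, against 1.58% and 1.09% of all tested genes. The median of the list was -0.29. The riser, poi-2, a gene needed for perithecium development, was barely expressed, at 0.422 to 0.749 FPKM in wild type and 1.23 to 3.99 FPKM in Δos-1. Its log2 change of 1.02 ± 0.30 dropped to 0.67 (adjusted p = 0.0893, limma) without Δos-1 replicate 3, and to 0.97 without wild type replicate 1 or 3. It was 0.99 under median-ratio rescaling and 0.97 under the scaling of the whole-series table, both below the fold threshold. The pheromone receptor gene pre-1 stood at -0.58 and was not called. The 7 sexual tissue markers summed to 752.5 to 1495 FPKM in wild type and 261 to 421 FPKM in Δos-1, and to 123 to 126 FPKM and 123 to 131 FPKM once ccg-4 was set aside.

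No gene of the osmosensing cascade itself was called, of 7 tested. Over all tested genes 2.67% were called, and 19 of the 31 lists held no called gene. The phosphotransfer gene hpt-1 stood at 169, 163 and 159.8 FPKM in wild type and at 219, 215 and 207 FPKM in Δos-1. The response regulator gene rrg-2 stood at 25.4, 26.2 and 26.6 FPKM against 36.9, 37.1 and 34.2 FPKM. Both were higher in all 3 mutant libraries, by 0.38 ± 0.05 (adjusted p = 3.04e-06, limma) and 0.45 ± 0.07 (adjusted p = 5.31e-05, limma) on the log2 scale, below the fold threshold. Such changes were common, as 56.9% of all tested genes had separate groups in either direction and 42.4% passed the adjusted p at any size. The response regulator gene rrg-1 had a change of 0.05 ± 0.06, the MAP kinase kinase gene os-5 of 0.04 ± 0.06, and the MAP kinase kinase kinase gene os-4 of -0.09 ± 0.07, whose sign turned under median-ratio rescaling to 0.02. The MAP kinase gene os-2 changed by -0.14 ± 0.11 and asl-1 by -0.19 ± 0.08. None of 4 genes of other histidine kinases and none of 6 genes of other MAP kinase modules was called.

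Among 6 genes of glycerol and osmolyte metabolism 2 rose, both glycerol dehydrogenase genes, and none fell. Across all tested genes the shares were 1.58% higher and 1.09% lower. The gene gcy-1 (NCU04923, IV:747091-748922) stood at 17.0, 13.4 and 19.8 FPKM in wild type and at 29.0, 38.6 and 48.3 FPKM in Δos-1. The gene gcy-3 (NCU04510, IV:3139314-3140717) stood at 68.8, 53.7 and 46.8 FPKM against 148, 132 and 113 FPKM. In both the mutant libraries lay above all wild type libraries. The log2 fold changes were 1.15 ± 0.16 and 1.21 ± 0.14. Without Δos-1 replicate 3 gcy-1 stood at 0.97, under the fold threshold. The gene beside gcy-1 is cut-1 (NCU04924, IV:749584-752599), known from an osmotically sensitive mutant. It rose from 10.1, 8.62 and 15.6 FPKM to 24.5, 36.9 and 47.2 FPKM, a log2 fold change of 1.57 ± 0.25 (adjusted p = 3.87e-05, limma). It was in no list and was chosen after its values were seen. Of 10 genes of cation transport and the plasma membrane proton pump only nca-3, which encodes a calcium ATPase, was called. It stood at 8.45, 7.20 and 7.68 FPKM in wild type and at 21.0, 21.4 and 20.5 FPKM in Δos-1 (1.33 ± 0.09), while its relative nca-2 stood at -0.55.

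The gene acu-6, encoding phosphoenolpyruvate carboxykinase, the entry enzyme of gluconeogenesis, rose from 17.3, 19.0 and 24.2 FPKM to 50.9, 62.3 and 84.5 FPKM (log2 fold change 1.64 ± 0.27, adjusted p = 6.89e-05, limma). It was the 1 called gene of 5 in its list, whose log2 changes ran from 0.35 to 1.64. With the exception of tca-2, at 6.64 ± 1.05 FPKM in wild type and 2.43 ± 0.244 in Δos-1 (-1.15 ± 0.23), none of 16 citrate cycle genes was called. None was called among 13 genes of glycolysis and fermentation, 4 of glycogen metabolism, 6 of the quinate cluster, 8 of nitrogen metabolism, 7 hexose and pentose transporters or 6 genes of starch and sucrose degradation. None was called either among 10 heat shock protein genes, 16 of the proteasome, 14 of the vacuolar proton pump, 5 of folding in the endoplasmic reticulum, 6 catalases and superoxide dismutases, 3 of alternative respiration or 11 light, clock and carotenoid genes. The medians of these lists lay between -0.24, for heat shock proteins, and 0.42, for starch and sucrose degradation. In all, 12 of 31 lists held a called gene, and 2.67% of all tested genes were called.

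**Figure D4:**
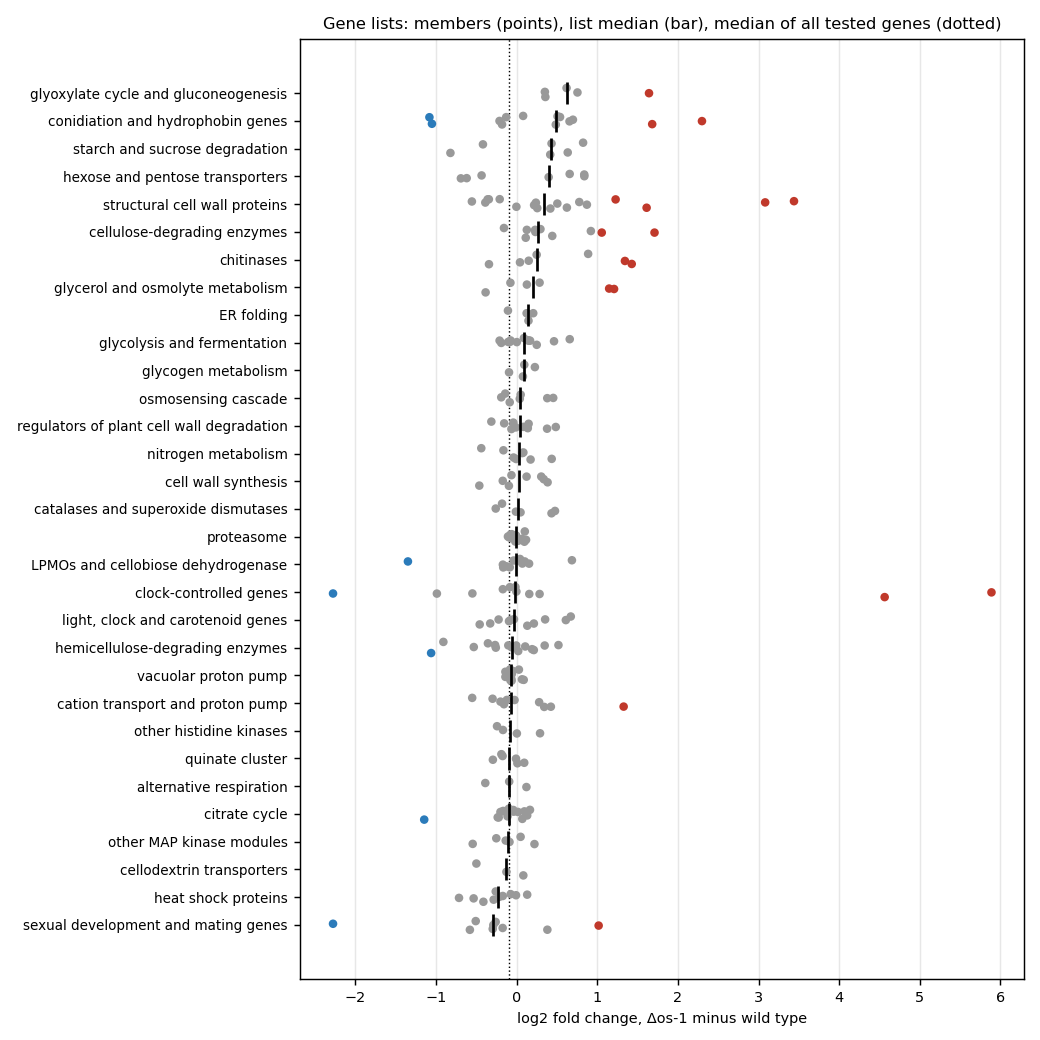
Log2 fold change of Δos-1 minus wild type on the x axis for the tested members of 31 gene lists, sorted by their median. Red members were called higher, blue members lower and grey members not called, the black bar is the list's median and the dotted line the median of all 8013 tested genes at -0.09. Most members lie between -1 and 1, and the structural cell wall and clock-controlled lists hold the points farthest to the right.

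Some called genes with a symbol lay outside the lists and were chosen after their values were seen. The neutral amino acid permease gene mtr rose from 32.0 ± 5.64 to 72.0 ± 3.52 FPKM (log2 fold change 1.16 ± 0.21). The allantoicase gene alc-1 rose from 43.1 ± 1.13 to 93.2 ± 23.9 FPKM (1.07 ± 0.12), with a value of 0.88 without Δos-1 replicate 3. The regulator gene fld rose from 16.9 ± 2.09 to 38.7 ± 1.53 FPKM (1.15 ± 0.10). The formate dehydrogenase gene fdh fell from 131 ± 15.8 to 53.3 ± 4.20 FPKM (-1.28 ± 0.14). Each of these had separate groups of libraries, as did 210 of the 214 called genes and 56.9% of all tested genes.

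The largest falls were in genes that carry no symbol. NCU04169 (V:5067463-5069571) went from 402, 453 and 139 FPKM in wild type to 15.5, 15.9 and 8.11 FPKM in Δos-1, a log2 fold change of -4.43 ± 0.45 (adjusted p = 2.08e-07, limma). Wild type replicate 3 was the lowest of its group and still above the mutant by a wide margin. The genes on both sides of it, NCU04168 and NCU04170, also fell, by 1.36 and 1.09 on the log2 scale, the second by 0.90 without wild type replicate 2 and so under the threshold.

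NCU05755 (VII:3720774-3721718) went from 192, 195 and 158 FPKM to 22.7, 26.0 and 23.4 FPKM, a log2 fold change of -2.87 ± 0.12 (adjusted p = 8.46e-13, limma). NCU10014 went from 82.5, 86.1 and 55.4 FPKM to 8.53, 8.20 and 6.84 FPKM (-3.07 ± 0.17). NCU06983 went from 55.4, 57.4 and 42.8 FPKM to 8.27, 6.93 and 7.95 FPKM (-2.59 ± 0.11). These 3 genes were tightly grouped in the mutant, and separate groups were a condition for naming them.

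Falls between 1.65 and 2.52 log2 units were found for NCU09046 (-2.52 ± 0.26), NCU09568 (-2.39 ± 0.31), NCU16488 (-2.37 ± 0.16), NCU09213 (-2.27 ± 0.29), NCU08429 (-2.06 ± 0.29), NCU07823 (-1.99 ± 0.18), NCU06129 (-1.83 ± 0.19) and NCU04496 (-1.65 ± 0.19). Their wild type means ran from 11.6 FPKM for NCU06129 to 163 FPKM for NCU08429. All 8 were chosen among genes whose groups were apart.

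The largest fall of all was in a gene that was near 0 in other strains too. NCU09968 (VI:309546-315476) stood at 29.1, 32.3 and 32.0 FPKM in wild type and at 0.019, 0.0131 and 0.169 FPKM in Δos-1, a log2 fold change of -4.91 ± 0.07 (adjusted p = 6.81e-22, limma). The mean was also 0.0114 FPKM in Δclr-3, 0.0226 in Δcre-1 and 0.037 in Δos-1Δclr-3, while Δos-2 held 14.1 ± 0.344 FPKM and Δos-2Δclr-3 9.49. At 4 h NCU09968 was at 0 in all libraries of Δclr-3 and of the strain labelled Pccg1-clr-2. Its values were 10.4, 0 and 0 FPKM in Δclr-1, with a mean of 0.00414 FPKM in Δclr-2. Wild type means at 4 h were 26.2 FPKM starved and 19.6 FPKM on Avicel. The neighbouring gene NCU09969 stood at 2.64 to 3.31 FPKM in wild type at 10 h and at 0 to 0.00988 FPKM in Δos-1. Its mean at 10 h was also 0 FPKM in Δclr-3 and in Δcre-1, against 1.08 FPKM in Δos-2 and 0.989 FPKM in Δos-2Δclr-3. It lay under the filter of 1 FPKM and was not tested. Levels this low were thus measured in strains that keep os-1, and whether the fall follows from the os-1 deletion was not tested.

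Of 10 cellulose-degrading enzyme genes tested 2 rose, both for β-glucosidases, which cleave cellobiose to glucose. Among all tested genes 1.58% rose and 1.09% fell. The gene gh3-4 (NCU04952) stood at 35.3, 35.0 and 26.6 FPKM in wild type and at 105, 117 and 101 FPKM in Δos-1 (log2 fold change 1.71 ± 0.26, adjusted p = 2.43e-05, limma). The gene gh3-3 (NCU08755) stood at 25.3, 28.6 and 31.6 FPKM against 51.4, 64.4 and 65.5 FPKM (1.06 ± 0.15). In both the groups were apart, and gh3-3 slipped to 0.98 and 0.99 without wild type replicate 1 or Δos-1 replicate 3. The cellobiohydrolase gene cbh-1 stood at 28.9, 28.0 and 38.1 FPKM against 35.2, 54.8 and 25.9 FPKM, with overlap and a change of 0.23 ± 0.23 (adjusted p = 0.449, limma).

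In the other lists of this kind the single calls were falls, against a share of 1.09% lower over all tested genes. The lytic polysaccharide monooxygenase (LPMO) gene gh61-2, 1 of 12 genes tested in the list of LPMOs and cellobiose dehydrogenase, fell from 5.58 ± 0.900 to 1.57 ± 0.0622 FPKM (-1.35 ± 0.16). The mannanase gene gh5-7, 1 of 15 hemicellulase genes, fell from 16.0 ± 0.481 to 7.30 ± 1.96 FPKM (-1.06 ± 0.12). The fall of gh5-7 was -0.95 after median-ratio rescaling and -0.85 without Δos-1 replicate 3. None of the 3 cellodextrin transporters and none of 10 regulators of plant cell wall degradation was called.

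In the background of the clr-3 deletion, measured in 6 other libraries, the loss of os-1 gave 249 higher and 203 lower genes, 3.11% and 2.53% (together 5.64%) of 8012 tested. Of the 127 genes higher in Δos-1 than in wild type, 93 were also higher in Δos-1Δclr-3 than in Δclr-3, which is 73.2% of the former list and 37.3% of the latter. Of the 87 lower genes 55 were lower in both, 63.2% and 27.1% of the lists. Only NCU09568 was called in opposite directions. The median log2 change of the 127 higher genes was 1.36 in the wild type background and 1.67 in the clr-3 deletion, and that of the 87 lower genes was -1.36 and -1.24.

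The named genes ccg-13, ccg-14 and ncw-5 rose in that background too. Of the lists, 6 of 18 structural cell wall protein genes rose there and none fell, and 2 of 11 clock-controlled genes rose and 1 fell. Over all tested genes 3.11% rose and 2.53% fell in the clr-3 deletion. The gene ccg-13 stood at 49.8 ± 18.1 FPKM in Δclr-3 and 1921 ± 252 in Δos-1Δclr-3 (log2 fold change 5.29 ± 0.32), ccg-14 at 42.7 ± 11.7 and 572 ± 19.5 (3.74 ± 0.25), and ncw-5 at 223 ± 76.6 and 2631 ± 376 (3.60 ± 0.18). NCU05755 fell from 265 ± 37.4 to 27.6 ± 2.09 FPKM (-3.21 ± 0.12). For these 4 genes the difference between the backgrounds was not called, with adjusted p from 0.0924 to 0.355 (limma) and values between -0.82 and 0.52 log2 units.

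The effect of os-1 loss differed between the backgrounds for 249 of 8012 genes (3.11%), with a more positive effect in the clr-3 deletion for 120 (1.5%) and a more negative one for 129 (1.61%). Median-ratio rescaling turned this split to 90 and 145, and leaving out Δos-1Δclr-3 replicate 2 turned it to 81 and 119. The largest differences were in plant cell wall degrading enzymes. The gene cbh-1 stood at 4717 ± 1508 FPKM in Δclr-3 and 36.1 ± 8.93 in Δos-1Δclr-3, close to the 31.6 ± 5.61 FPKM of wild type. That is a change of -6.96 ± 0.23 against 0.23 ± 0.23 in the wild type background, a difference of -7.19 ± 0.33 (adjusted p = 2.78e-12, limma). In the clr-3 deletion, os-1 loss lowered 8 of 10 cellulose-degrading enzyme genes, 9 of 12 LPMO and cellobiose dehydrogenase genes, 12 of 15 hemicellulase genes and all 3 cellodextrin transporter genes. Over all 8012 tested genes it lowered 2.53% in that background.

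**Figure D5:**
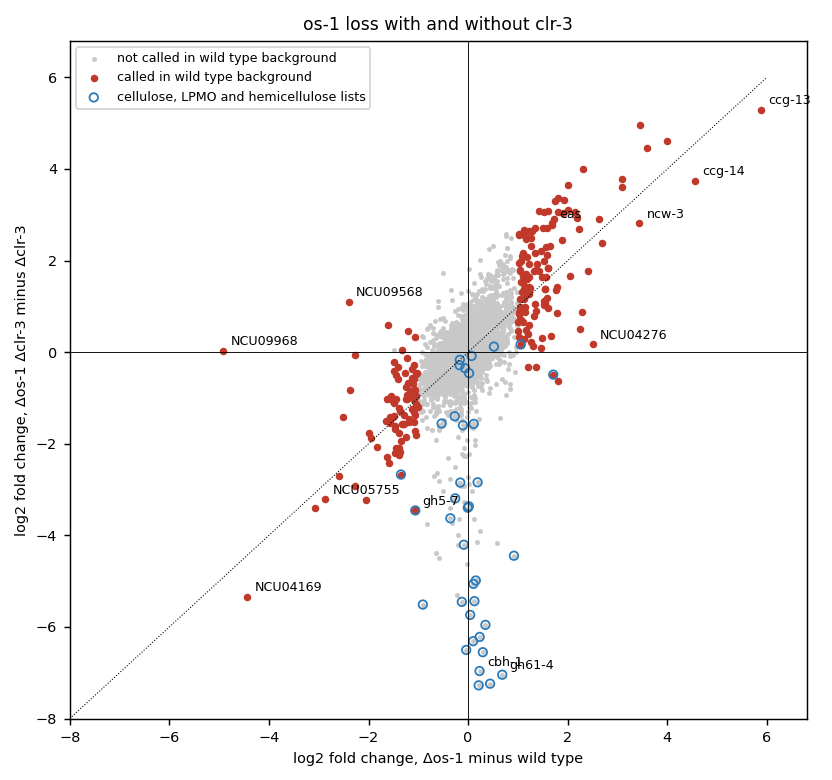
Log2 fold change upon loss of os-1 in wild type (x axis) and in the clr-3 deletion (y axis) for each gene tested in both. Red points were called in the wild type background, blue rings mark the cellulose, LPMO and hemicellulose lists, and the dotted line marks equal effects. The ringed genes form a column near 0 on the x axis that reaches below -7 on the y axis, while ccg-13 and ccg-14 lie near the dotted line.

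Levels in Δos-1 were also set against those in the strain without os-2, the MAP kinase gene downstream of OS-1. Between Δos-1 and Δos-2, 420 genes were higher and 307 lower in Δos-1, 5.24% and 3.83% (together 9.07%) of 8012 tested, and median-ratio rescaling turned this split to 323 and 370. This comparison shares the Δos-1 libraries with the one above, so its values are set beside the others as levels. The gene ccg-13 stood at 4.31 ± 2.97 FPKM in Δos-2, below the wild type mean of 30.3 FPKM. Δos-1 exceeded Δos-2 by 8.55 ± 0.32 log2 units (adjusted p = 9.67e-15, limma).

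Of the 6 genes farthest above Δos-2 by log2 difference, ccg-13 was 1 and the other 5 follow. That Δos-1 exceeded Δos-2 in them was fixed by this choice. NCU10040 stood at 7.96 ± 3.26 FPKM in Δos-2 (difference 7.69 ± 0.25), ncw-5 at 29.4 ± 5.86 (6.84 ± 0.18) and ccg-14 at 7.91 ± 1.18 (5.87 ± 0.25). NCU09168 and its neighbour NCU09167 were at 39.3 ± 1.56 and 37.8 ± 0.629 FPKM in Δos-1, at 18.8 ± 3.22 and 17.4 ± 4.25 in wild type, and at 0.0792 and 0.0921 FPKM in Δos-2. The differences between the mutants were 5.22 ± 0.20 and 5.15 ± 0.19. Their rises over wild type, 1.03 ± 0.20 and 1.10 ± 0.19, were 0.95 and 0.97 without wild type replicate 1. For these 5 genes the wild type mean lay between those of the mutants.

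The 6 genes farthest below Δos-2 by log2 difference follow. NCU16673 stood at 23.4 ± 12.2 FPKM in Δos-1, 8.62 ± 2.33 in wild type and 1166 ± 285 in Δos-2 (difference -5.72 ± 0.46). NCU01871 stood at 71.8 ± 48.2, 21.0 ± 1.42 and 1271 ± 155 FPKM (-4.36 ± 0.38). NCU04276, described above, was at 6674 ± 737 FPKM in Δos-2 (-4.18 ± 0.47), NCU07352 at 338 ± 59.8 (-4.11 ± 0.36) and NCU06964 at 51.3 ± 7.57 (-4.08 ± 0.25). NCU16488 stood at 1.69 ± 0.179 FPKM in Δos-1, 12.9 ± 0.908 in wild type and 40.8 ± 0.705 in Δos-2 (-3.96 ± 0.16).

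Several genes stood near each other in both mutants. The means of gcy-1 were 38.6 FPKM in Δos-1 and 39.8 in Δos-2 (difference -0.07 ± 0.16, adjusted p = 0.705, limma), those of eas 13832 and 18046 FPKM (-0.41 ± 0.26, adjusted p = 0.166, limma), and those of ccg-4 223 and 258 FPKM (-0.28 ± 0.36, adjusted p = 0.504, limma). These 3 differences did not pass the test. The paired gene gcy-3 did separate them, with 131 ± 17.5 FPKM in Δos-1 and 23.1 ± 2.66 in Δos-2 (2.45 ± 0.14).

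On the chromosomes, called genes often lay next to one another. Of the 127 higher genes 20, or 15.7%, had an adjacent gene called in the same direction, while 2.57% of the 7990 tested genes on the 7 chromosomes had an adjacent higher gene. Of the 87 lower genes 22, or 25.3%, had an adjacent lower gene, against 1.75%. These formed 10 pairs of higher genes, among them NCU09209 with NCU09210, gcy-1 with cut-1, fld with NCU09738 and NCU09167 with NCU09168. The lower genes formed 8 pairs and 2 runs of 3. One run, NCU07737, NCU07736 and NCU09823, spans V:484764-513604, and the other is NCU04168, NCU04169 and NCU04170 at V:5063063-5080269. In none of the 20 runs did the first pair overlap by their annotated ends. Strandedness of the libraries is not given in the sources used here, and reads of closely spaced neighbours may not be fully separated. Chromosome IV held 25.2% of the higher genes and 14.9% of the tested genes, and chromosome VI 17.2% of the lower and 9.72% of the tested genes.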

How the data were processed

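Of the 42 sequenced libraries, the 24 of the 8 groups at 10 h entered 1 model and shared its estimate of the spread. The deposited values are FPKM per gene and library, made by the authors. Tools listed in the submitters' processing notes are Cufflinks 2.2.1 and HISAT2 2.0.5. The sources used here state neither settings nor strandedness. The locus ends equal those of the NC12 reference for 9750 of 9758 genes, and 9757 matched it by identifier. Symbols missing there come from background knowledge. The 12 genes with a failed estimate in at least 1 library were dropped. Counts were not used here, so precision was judged from the spread of replicates.

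Group contrasts of log2(FPKM + 1) were computed in R 4.3.3 using limma 3.58.1 (1 coefficient per group, eBayes with a trend), and the procedure was tested on simulated data. The filter was a mean of 1 FPKM. A deleted gene was left out of its own comparisons. No replicates were copies of one another: the chi-square between replicates was at least 5.14 per degree of freedom. The labels number the replicates 1 to 3, and the main fit did not pair libraries by these numbers.

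The comparison, the 31 gene lists, the tests and the thresholds were chosen with earlier results of these data known. Of the lists, 7 were added and some identifiers corrected once the reference was at hand. The text names the 14 largest rises and falls among called genes with separate groups and a higher mean of at least 10 FPKM, up to 4 called members per list, the osmosensing cascade, the 6 largest differences each way from Δos-2, and the 4 each way between the clr-3 backgrounds. For the last of these, groups had to be separate in at least 1 background. Alternatives were other pseudocounts, filters and scalings, a fit of the compared groups only, no trend, a replicate block, and the omission of each library.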

Additional observations from a re-analysis of the deposited data

Results flagged for a closer look

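The effect of os-1 loss differed between the clr-3 deletion and wild type for several of the named genes, by the test of the difference itself over 12 libraries (limma, adjusted p under 0.05 and at least 1 log2 unit). All values that follow are the os-1 effect in the clr-3 deletion minus that in wild type on the log2 scale, and no cause was tested.

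Most negative were genes of cellulose and xylan breakdown. The LPMO gene gh61-4 stood at -7.73 ± 0.70, the cellobiohydrolase gene gh6-2 at -7.68 ± 0.42, the xylanase gene gh10-1 at -7.49 ± 0.43 and the cellobiohydrolase gene cbh-1 at -7.19 ± 0.33. Their means in Δclr-3 were 5589, 7169, 834 and 4717 FPKM, against 10.5, 33.0, 2.13 and 31.6 FPKM in wild type. The mannanase gene gh5-7 stood at -2.39 ± 0.16, the β-glucosidase gene gh3-4 at -2.20 ± 0.37 and the LPMO gene gh61-2 at -1.32 ± 0.23.

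Smaller negative differences were measured for NCU04276 (-2.33 ± 0.66), NCU07853 (-1.73 ± 0.43) and NCU08429 (-1.17 ± 0.42). The first 2 of these genes were already high in Δclr-3, at 5560.2 and 2401 FPKM.

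On the positive side, NCU09968 stood at 4.95 ± 0.10, with Δclr-3 and Δos-1Δclr-3 both near 0, so that its value restates the fall in the wild type background. NCU09568 stood at 3.50 ± 0.43, falling in the wild type background and rising from 5.10 ± 1.48 to 12.7 ± 5.54 FPKM in the clr-3 deletion. NCU00365 stood at 2.24 ± 0.35 and NCU09213 at 2.21 ± 0.41. The chitinase gene gh18-4 stood at 1.66 ± 0.46, NCU16488 at 1.54 ± 0.22, NCU00607 at 1.51 ± 0.50, the hydrophobin gene eas at 1.14 ± 0.36 and NCU09046 at 1.10 ± 0.37.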

How the results depend on the processing

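A pseudocount of 5 lowered the counts of called genes by more than 1.5 times: 133 for Δos-1 against wild type in place of 214, 470 against Δos-2 in place of 727, 294 in the clr-3 deletion in place of 452, and 154 for the difference between backgrounds in place of 249. A larger pseudocount shrinks the changes of low genes by construction. Leaving out 1 library gave 197 to 241, 671 to 788, 412 to 478 and 200 to 276. All other alternatives run for these 4 counts stayed within 1.5 times. Against wild type, 160 of the 214 called genes were called in all 6 fits without 1 library, and none changed sign. Of 52 genes named for the size of their change, as list members or for the cascade, under all alternatives, 829 values in all, 793 kept their direction and side of the threshold, 34 fell below the threshold and 2 changed sign. Both sign changes were os-4, at 0.0172 after median-ratio rescaling, with and without the block. At a pseudocount of 5 the calls of wet-1, gcy-1, gh3-3, gh61-2, gh5-7, poi-2 and tca-2 were lost, as were those of fld, NCU04168, NCU04170, NCU07352, NCU09167, NCU09168 and NCU16673, which the tally of 52 does not cover. The call of NCU16673 was also lost without a filter on low values. Leaving out wild type replicate 1 or 3 or Δos-1 replicate 2 or 3 ended it too (adjusted p from 0.073 to 0.170, limma). Without Δos-1 replicate 3 the call of NCU07352 was lost as well, at 0.89 (adjusted p = 0.0644, limma). Among genes named in the text but outside that tally, either rescaling ended the calls of NCU04170 and NCU09823. Lower genes not named elsewhere lost their calls under both rescalings as well, among them NCU00180, NCU02077 and NCU06341. The count of lower genes against wild type went from 87 to 67 under median-ratio rescaling. The split of higher and lower genes against Δos-2 turned from 420 and 307 to 323 and 370 under median-ratio rescaling. With a replicate block the count against wild type was 214. Same-numbered Δos-1 and wild type libraries had deviations correlated at 0.207, 0.046 and 0.305, and those with unlike numbers at -0.313 to 0.188. Each Δos-1 library correlated best with the wild type library of its own number. Wild type replicate 2 correlated best with Δos-1 replicate 1. Whether equal numbers mark libraries handled together was not tested. The planned count of promoter motifs was not run. With 3 libraries a group, the spread between replicates limits what small changes can show.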
